A study of Chlamydomonas reinhardtii with 42 samples.

Results

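The subject is the strain A31 of Chlamydomonas reinhardtii, a unicellular green alga, 48 h after vitamins were added to its medium, set against the same strain at 0 h. The 2 libraries of 48 h, numbered 19 and 22, and the 3 of 0 h, numbered 1, 4 and 7, were chosen by their strain and time, 5 of the 17 libraries of the table. All 17114 genes of the table were considered, and the 14422 with a mean of at least 1 CPM (reads scaled to the library total) over the 17 libraries were tested. Weight was put on genes for which both 48 h libraries lay outside the 0 h range on the same side.

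Cells of both strains were grown in Tris-acetate medium, and the depletion of ClpP1 was induced with vitamin B12 (cobalamin) and thiamine. The groups compared are A31 at 48 h after the 2 vitamins (2 libraries), A31 at 12 h (3), DHC16 at 48 h (3), DHC16 at 0 h (3) and A31 at 0 h (3). DHC16 at 12 h (3) entered the filter and the estimate of the spread, and none of the tested comparisons. All are labelled with these vitamins. Which strain loses ClpP1 is not in the labels, and published work describes A31 as the control strain. Nothing in them tells whether libraries come from separate cultures, and p-values therefore cover only the spread among these libraries, possibly a technical one. No culture kept without vitamins for 48 h was analysed, so the vitamins, growth and the time of sampling cannot be told apart. The growth conditions name light, dim light and darkness without assigning them to libraries.

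ClpP1 is a catalytic subunit of the Clp protease of the chloroplast stroma, and it is encoded in the chloroplast genome. In strains made with a vitamin-repressible gene system, added cobalamin and thiamine shut off a factor that the chloroplast gene needs. Chlamydomonas cells grow to several times their size and then divide by multiple fission, and their genes of replication, mitosis and plastid division are known to be transcribed in waves tied to division. The flagella are taken down before division and regrown by the daughters, which also build new cell walls of hydroxyproline-rich glycoproteins.

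The clpP1 transcript was not analysed here. The vitamin marker METE, a methionine synthase that works without cobalamin and is known to be shut off by it, had 1001 (library 19) and 353 (library 22) normalized counts at 48 h, against 1050, 579 and 814 at 0 h. Library 19 lay inside the 0 h range and library 22 below it, and the difference was not called (limma, log2 change -0.41 ± 0.33, adjusted p = 0.38, n = 2 against 3). At 12 h METE was lower, with 165, 140 and 146 in A31, under every 0 h library and both 48 h libraries (limma, 48 h minus 12 h, log2 1.98 ± 0.33, adjusted p = 0.00087). In DHC16 it had 338, 340 and 289 at 48 h, against 935, 585 and 1004 at 0 h.

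The 2 libraries of 48 h were unlike each other. Across genes, the mean rank correlation with A31 at 0 h was 0.943 for library 19 and 0.775 for library 22, and with A31 at 12 h it was 0.813 for library 19 and 0.919 for library 22. The A31 libraries at 48 h held 13699705 (19) and 10856405 (22) reads, against 8582199 to 12109846 at 0 h. Library 19 lay within the 0 h range for 32.4% of tested genes and library 22 for 15.2%. Whether either library carries a wrong label or comes from another growth state was not tested, and every 48 h value depends on it. Results are therefore given per library. The counts over all genes are repeated without either one, and those of many lists without library 22, for some also without library 19.

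Values are normalized counts, the authors' read numbers scaled by 1 factor per library. Differences were tested with limma on log2(normalized count + 1), and a gene was called at a Benjamini-Hochberg adjusted p under 0.05 over the tested genes. Each gene had 1 spread estimated over all 17 libraries, so the unlike 48 h pair was tested with a spread mostly from other groups. Log2 changes are on that scale, 48 h minus 0 h, with their SE, and they understate changes of low genes. A floor of 3 reads equalled 2.11 to 3.36 normalized counts at 0 h. Where the mean of 0 h lay at or under 3.36, no log2 change of the gene is given. For some of these genes a ratio of library 19 to the pooled 0 h reads stands in its place, with an exact interval that covers counting error only.

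Of the tested genes, 3892 (27%) were called, 2071 higher at 48 h (14.4%) and 1821 lower (12.6%). Both libraries lay outside the 0 h range on the same side for 6601 genes (45.8%), above it for 3358 (23.3%) and below it for 3243 (22.5%). Among these, 1923 (13.3% of the tested genes) were called and above, and 1749 (12.1%) were called and below. Both libraries were at least 2-fold above the 0 h range for 561 genes (3.89%) and at least 2-fold below for 247 (1.71%). Library 19 was the one nearer to 0 h for 1787 of the 1923 genes called and above (92.9%) and for 1613 of the 1749 called and below (92.2%). Without library 22 the calls were 561 higher and 392 lower, and without library 19 they were 3821 and 3384, each with a single library at 48 h whose spread was taken to equal that of the other groups. Scaled to the library totals, 1129 were higher and 2769 lower, and with edgeR 2657 and 1484. At the edge of the range, FUSM had 120 and 20.9 at 48 h and counted as below 0 h (120 to 209), while FDX5 had 0 and 4039 and did not count as above, since library 19 equalled its 0 h values of 0.

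**Figure D1:**
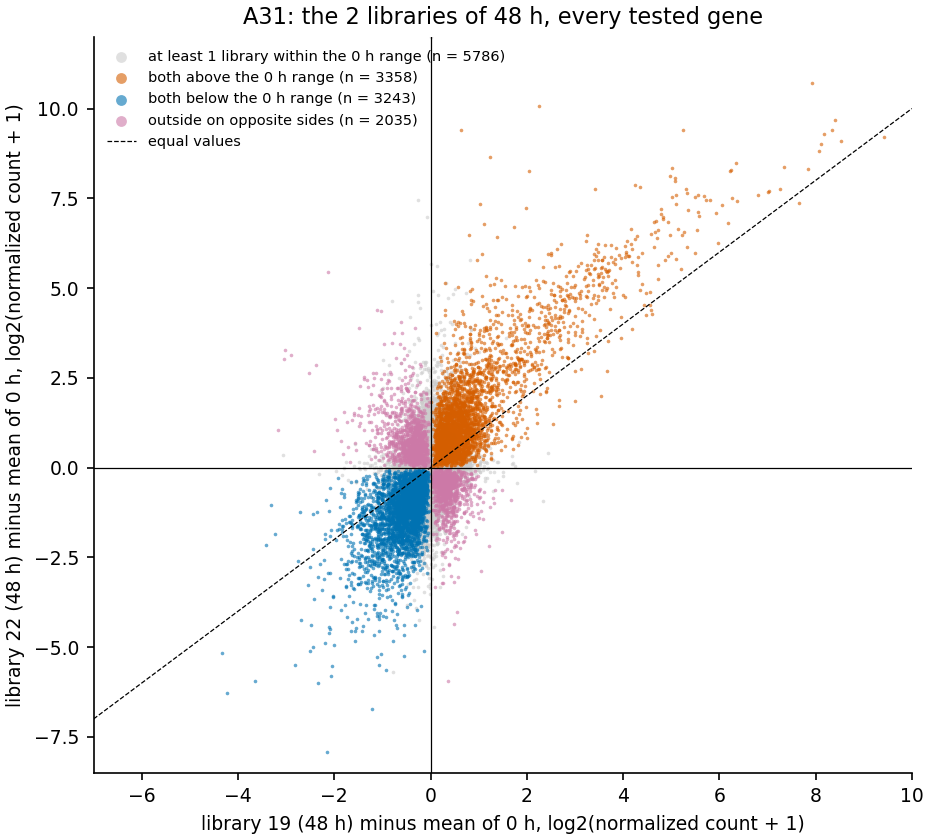
Difference of each 48 h library of A31 from the mean of its 3 libraries of 0 h, for every tested gene, on the log2(normalized count + 1) scale (library 19 on the x axis, library 22 on the y axis). Colours give the position against the 0 h range: 3358 genes had both libraries above, 3243 both below and 2035 had the libraries outside on opposite sides; the dashed line marks equal values.

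Gene names were at hand for 766 of the tested genes (5.31%), of which 27.5% were called higher and 20.2% lower, more than over all genes in both directions. Both libraries lay above the 0 h range for 34.2% of the named genes and below it for 26%. The gene lists hold only named genes, and their shares are to be read against these percentages.

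Genes of DNA replication and repair were higher at 48 h: 31 of 39 tested members rose and the others were not called, with a median log2 change of 1.55 against 0.03 over all tested genes. Library 19 had a list median 1.10 above the 0 h mean and library 22 one of 2.31. Library 22 lay above the 0 h range for 39 of 39 members and library 19 for 32. TOP2, the DNA topoisomerase II that untangles replicated chromosomes, had 59.6 (library 19) and 229 (library 22) normalized counts at 48 h, against 0, 2.29 and 1.41 at 0 h. Its 5 reads over the 3 libraries of 0 h put library 19 at 43.2-fold (95% exact counting interval 17.7 to 137). Both 48 h libraries were thus well above the few reads of 0 h. MCM8, a helicase of the minichromosome maintenance family, had 12.5 (library 19) and 31.9 (library 22) normalized counts at 48 h, against 0, 0.763 and 0 at 0 h. Every 0 h library of MCM8 was under the floor and both 48 h libraries were above it (adjusted p = 5.2e-05). RAD54B, annotated as a DNA repair and recombination protein, was at 0 in each 0 h library and had 8.62 and 32.8 normalized counts at 48 h, at least 2.57-fold above the highest per-library floor in library 19. Without library 22, 14 members of the list rose, and without library 19, 36.

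Genes of mitosis rose as well, 15 of 22 members with the others not called, at a list median of 1.32 in library 19 and 2.53 in library 22. ALK3, an Aurora-like kinase of the family that acts on the spindle, had 489 (library 19) and 827 (library 22) normalized counts at 48 h, against 0, 1.53 and 1.41 at 0 h (adjusted p = 2.8e-10). Both 48 h libraries stood far above the 0 h libraries, which held 4 reads in all, and library 19 was 444-fold (95% exact counting interval 172 to 1633) higher. CDKB1, the plant-specific cyclin dependent kinase of mitosis, had 132 (library 19) and 581 (library 22) normalized counts at 48 h, against 3.36, 0 and 0 at 0 h (adjusted p = 1.5e-07), with its 3 reads of 0 h all in library 1. SMC2 and SMC4, the core subunits of condensin, which compacts chromosomes, were measured too. SMC2 had 65.1 and 272 at 48 h, against 0, 0 and 2.11 at 0 h. SMC4 had 41.5 and 121 at 48 h, against 0, 0.763 and 0 at 0 h. For both, library 22 was higher than library 19, and the 0 h libraries lay at or under the floor (adjusted p = 3e-06 for SMC2 and 4.4e-06 for SMC4). Without library 22, 11 members rose, and without library 19, 17.

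All 6 tested genes of the plastid division machinery rose, with a median log2 change of 6.09 (4.92 in library 19 and 7.25 in library 22), and all 6 did so without either 48 h library in turn. The Min proteins place the division ring at the middle of the plastid, and FtsZ forms that ring. MIND1, the chloroplast septum site-determining protein, had 110 (library 19) and 607 (library 22) normalized counts at 48 h, against 1.12, 2.29 and 2.11 at 0 h. Its partners were MINE1, with 111 and 494 at 48 h, against 2.24, 6.87 and 1.41 at 0 h, and MINE2, with 47.8 and 239 at 48 h, against 0, 0.763 and 0 at 0 h. FTSZ2, one of the FtsZ proteins, had 53.3 (library 19) and 312 (library 22) normalized counts at 48 h, against 0, 3.81 and 0 at 0 h. In all 4 genes library 22 was several times above library 19, and the 48 h and 0 h libraries did not overlap. MINE1 had a log2 change of 5.90 ± 0.68 (adjusted p = 1.4e-05), and in library 19 the ratio to 0 h was 56.9-fold (95% exact counting interval 26.9 to 144) for MIND1 and 38.7-fold (95% exact counting interval 15.8 to 123) for FTSZ2.

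Cell wall genes made up 6 of the 12 named rises with the largest gap, the log2 distance of the nearer 48 h library from the 0 h range. Of 15 tested pherophorins, hydroxyproline-rich wall proteins and related genes, 12 rose and the others were not called, with a median of 3.58. GAS28, a hydroxyproline-rich wall glycoprotein also known from gametes, had 1800 (library 19) and 2681 (library 22) normalized counts at 48 h, against 2.24, 6.87 and 3.52 at 0 h (log2 change 8.82 ± 0.34, adjusted p = 1.9e-11). ISG-C2, another hydroxyproline-rich wall protein, had 939 (library 19) and 1485 (library 22) normalized counts at 48 h, against 6.71, 5.34 and 7.03 at 0 h (log2 change 7.33 ± 0.27, adjusted p = 1.9e-11). The 48 h libraries of both genes were within 2-fold of each other and far above every 0 h library. Pherophorins are wall glycoproteins first described in the extracellular matrix of Volvox. PHC4 had 501 (library 19) and 1049 (library 22) normalized counts at 48 h, against 4.48, 6.87 and 4.22 at 0 h (log2 6.90 ± 0.31, adjusted p = 1.6e-10). PHC25 had 161 and 204 at 48 h, against 3.36, 5.34 and 2.11 at 0 h (log2 5.37 ± 0.75, adjusted p = 9.8e-05). Both pherophorins were far above 0 h in each 48 h library. PHC22 and PHC19 had 1 read each over the 3 libraries of 0 h. PHC22 had 342 and 746 at 48 h, and library 19 was 1240-fold (95% exact counting interval 221 to 49070) above 0 h. PHC19 had 332 and 618 at 48 h, and its ratio in library 19 was 1203-fold (95% exact counting interval 215 to 47610). Close pherophorin paralogs can share reads, so their single values are uncertain to that extent. GOX18, annotated as a glyoxal or galactose oxidase, belonged to the same set of 12 and had 198 (library 19) and 417 (library 22) normalized counts at 48 h, against 2.24, 3.05 and 4.92 at 0 h (log2 change 6.08 ± 0.35, adjusted p = 3.8e-09). Without library 22, 9 wall genes rose, and without library 19, 12.

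**Figure D2:**
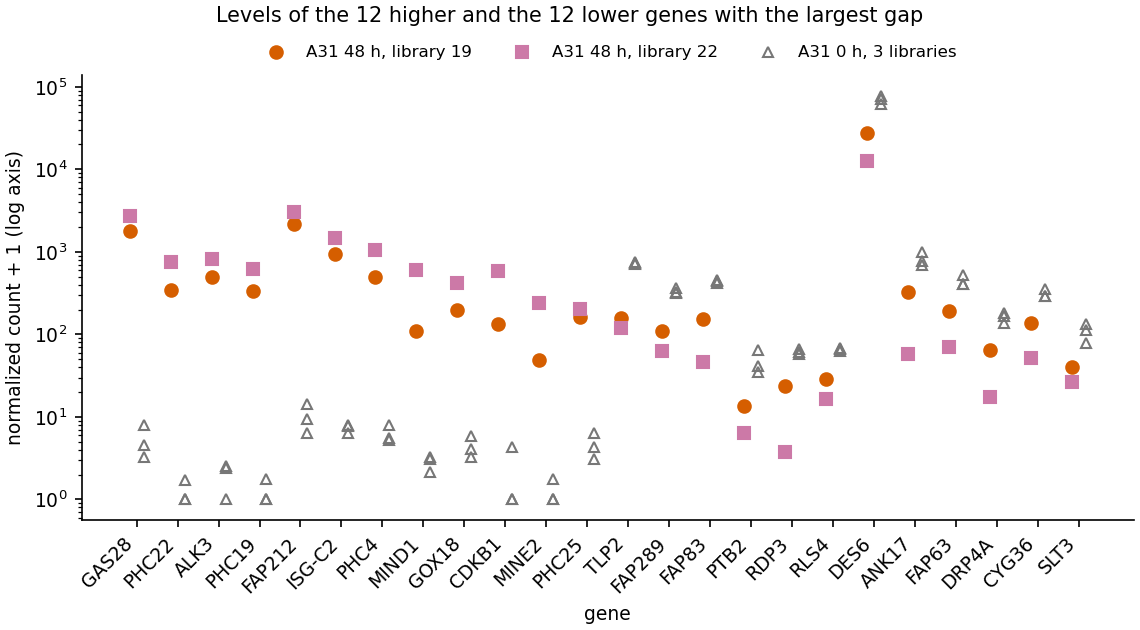
Normalized counts plus 1 (log axis) of the 12 named genes called higher and the 12 called lower with the largest gap between the nearer 48 h library and the 0 h range, with A31 at 48 h (library 19 circles, library 22 squares) left of the 3 libraries of A31 at 0 h (triangles). GAS28 stood at 1800 and 2681 at 48 h, against 2.24 to 6.87 at 0 h, and DES6 at 27929 and 12495, against 62301 to 78193.

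Genes of the flagellum moved the other way. Over flagella associated proteins, axonemal dyneins, radial spokes, the central pair and intraflagellar transport, 99 of 166 tested genes fell (59.6%, where 20.2% of all named genes fell) and 5 rose, with a median of -0.84. The falls were unequal between the libraries, with a median of -0.36 in library 19 and -1.36 in library 22. Library 19 lay below the 0 h range for 116 of the 166 genes and library 22 for 155. Without library 22 the calls were 13 lower, and without library 19 they were 146. When libraries were scaled to their totals, which moved the median of all genes to -0.19, the list median was -0.87 relative to all genes.

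By structure, 71 of 117 flagella associated proteins fell, 11 of 19 genes of axonemal dyneins and their docking, 7 of 13 radial spoke genes, 3 of 4 of the central pair and 7 of 13 of intraflagellar transport. Without library 22 the falls were 11 of 117, 0 of 19, 2 of 13, 0 of 4 and 0 of 13 in the same order, so that dynein, central pair and transport genes had no call left. FAP289, a flagellar coiled-coil protein, had 108 (library 19) and 61.9 (library 22) normalized counts at 48 h, against 329, 320 and 368 at 0 h (log2 change -2.03 ± 0.25, adjusted p = 3.1e-05). FAP83 had 154 (library 19) and 45.5 (library 22) normalized counts at 48 h, against 454, 417 and 439 at 0 h (log2 change -2.37 ± 0.38, adjusted p = 0.00035). FAP63 had 191 and 69.2 at 48 h, against 410, 405 and 528 at 0 h (log2 -1.94 ± 0.35, adjusted p = 0.0011). In these 3 genes both libraries lay below every 0 h library, library 22 the lower. ANK17, whose entry calls it a flagellar associated protein, had 321 and 56.5 at 48 h, against 698, 775 and 1000 at 0 h (log2 -2.58 ± 0.46, adjusted p = 0.00087). All 4 were called without library 22 too (adjusted p = 0.0007, 0.0064, 0.031 and 0.0074).

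RSP3, the spoke protein known to anchor radial spokes to the axoneme, had 597 (library 19) and 290 (library 22) normalized counts at 48 h, against 1013, 1070 and 1050 at 0 h (log2 change -1.32 ± 0.23, adjusted p = 0.00067). RSP2 had 289 and 139 at 48 h, against 435 to 572 at 0 h (log2 -1.31 ± 0.25, adjusted p = 0.0016), and RSP1 368 and 147 at 48 h, against 489 to 649 at 0 h (log2 -1.24 ± 0.28, adjusted p = 0.0046). ODA1, of the complex that docks outer dynein arms, had 850 and 392 at 48 h, against 1374, 1352 and 1413 at 0 h (log2 -1.25 ± 0.27, adjusted p = 0.0038). Each of these genes had both 48 h libraries below the 0 h range, library 22 the lower. PF16, a central pair protein, had 824 and 381 at 48 h, against 1063 to 1282 at 0 h (log2 -1.05 ± 0.27, adjusted p = 0.0099). CPC1, of the same structure, was below the 0 h range in both libraries with 415 and 256 at 48 h, against 461 to 575 at 0 h and was not called (log2 -0.63 ± 0.26, adjusted p = 0.087). IFT172, of the transport particle that carries cargo to the tip, had 741 and 349 at 48 h, against 998, 1028 and 1276 at 0 h (log2 -1.10 ± 0.35, adjusted p = 0.03). IFT88 had 803 and 395 at 48 h, against 958 to 1120 at 0 h (log2 -0.85 ± 0.26, adjusted p = 0.023). Without library 22 none of RSP1, ODA1, PF16, IFT172 and IFT88 was called (adjusted p = 0.14, 0.11, 0.27, 0.45 and 0.48), while RSP3 and RSP2 were (adjusted p = 0.012 and 0.042).

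**Figure D3:**
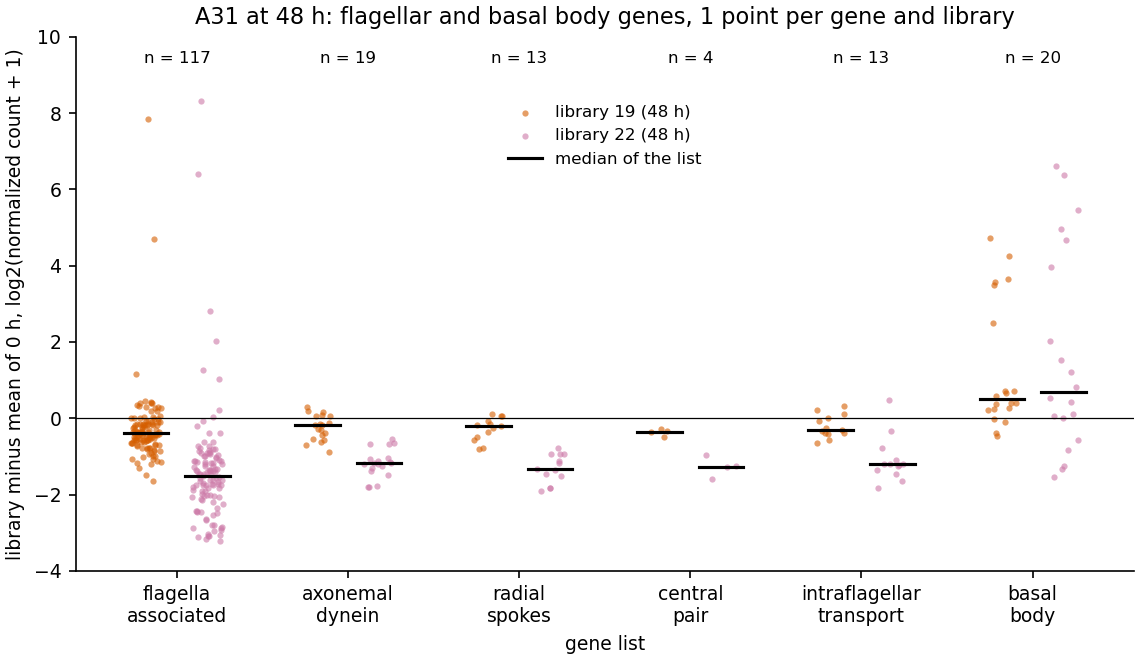
Difference of library 19 and library 22 of A31 at 48 h from the mean of 0 h, log2(normalized count + 1), for each tested gene of 5 flagellar lists and of the basal body list, with n the number of genes and a bar at each median. Medians of the flagellar lists run from -0.40 to -0.18 in library 19 and from -1.52 to -1.18 in library 22, and basal body genes lie on both sides of 0.

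A few genes with flagellar names rose. FAP212 had 2182 (library 19) and 3028 (library 22) normalized counts at 48 h, against 13.4, 5.34 and 8.44 at 0 h (log2 change 8.08 ± 0.34, adjusted p = 8e-11), and FAP281 had 50.2 (library 19) and 166 (library 22) normalized counts at 48 h, against 3.36, 0.763 and 0 at 0 h (adjusted p = 1.1e-05). Both were low at 0 h and high in both libraries of 48 h. FAP211, FAP24 and FAP23 were the other 3, with log2 changes of 2.00, 1.16 and 0.72. Basal body genes were divided, with 8 of 20 risen and 2 fallen, against 5 and 0 without library 22. The basal body is the centriole at the foot of the flagellum and also takes part in division. POC1, a centriole protein of the proteome of that organelle, had 54.1 and 143 at 48 h, against 5.6, 3.05 and 2.81 at 0 h (log2 change 4.25 ± 0.63, adjusted p = 0.00019). POC4 had 37.6 and 142 at 48 h, against 3 reads at 0 h, a ratio in library 19 of 45.5-fold (95% exact counting interval 14.7 to 228). POC5 was at 0 in every 0 h library and had 18 and 81.9 at 48 h, at least 5.37-fold above the floor in library 19. The rises of these centriole genes were present in both libraries and larger in library 22. POC18 stood at 25.1 and 91.1 at 48 h, against 0.763 to 1.41 at 0 h. Of the proteins conserved in species with motile cilia, 3 of 13 rose and 1 fell, against 2 and 0 without library 22. The shares with both libraries, 23.1% risen and 7.69% fallen, were under those of all named genes (27.5% and 20.2%). MOT42, of the motile cilia list and of no stated function, had 77.6 and 239 at 48 h, against 5.6, 7.63 and 4.92 at 0 h (log2 4.30 ± 0.48, adjusted p = 9.2e-06). MOT3 was at 0 in every 0 h library and had 24.3 and 93.8 at 48 h.

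Genes of photosynthesis were mostly higher in library 22 and divided in library 19. Of 23 tested genes of the photosystems, the antenna, electron transport and the Calvin cycle, 10 rose and the others were not called. The share that rose was 43.5%, against 27.5% of all named genes. The list median was 0.14 in library 19 and 1.85 in library 22. Both libraries were above the 0 h range for 6 of the 23, where they were for 34.2% of all named genes. Library 19 was above that range for 6 members and below it for 4, and library 22 above for 20 and below for 1. The libraries lay outside on opposite sides for 4 members. Without library 22, 2 rose, and without library 19, 17 rose and 1 fell. LHCBM3, a protein of the light-harvesting antenna of photosystem II, had 7357 (library 19) and 19162 (library 22) normalized counts at 48 h, against 2855, 4576 and 2830 at 0 h (log2 change 1.83 ± 0.35, adjusted p = 0.0015). LHCBM8, of the same family, had 383 and 1259 at 48 h, against 90.6, 288 and 169 at 0 h (log2 2.08 ± 0.52, adjusted p = 0.0083), and the close members of that family can share reads. PSB28, a small protein of photosystem II, had 777 and 1560 at 48 h, against 510, 479 and 478 at 0 h (log2 1.17 ± 0.22, adjusted p = 0.0015). PGR5, a thylakoid protein of cyclic electron flow, had 825 and 2555 at 48 h, against 646, 351 and 569 at 0 h (log2 1.52 ± 0.36, adjusted p = 0.0063). In these 4 genes library 19 lay above the 0 h range and library 22 farther above it. LHCBM8 and PGR5 were not called without library 22 (adjusted p = 0.21 and 0.2).

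In tetrapyrrole synthesis, the path to chlorophyll and haem, 4 of 10 rose and the others were not called, with medians of 0.15 in library 19 and 1.18 in library 22. CPX1, the coproporphyrinogen oxidase, had 544 and 2914 at 48 h, against 356, 500 and 439 at 0 h (log2 1.56 ± 0.43, adjusted p = 0.015). CHLM, the methyltransferase of magnesium protoporphyrin, had 321 and 703 at 48 h, against 227, 245 and 200 at 0 h (log2 1.08 ± 0.29, adjusted p = 0.012). PBGD1, the porphobilinogen deaminase, had 380 and 1031 at 48 h, against 322 to 348 at 0 h (log2 0.91 ± 0.28, adjusted p = 0.024). The path had 0 rises without library 22 and 9 without library 19. Nuclear genes of plastid ribosomal proteins gave 0 calls with limma among 29, 3 at an unadjusted p under 0.05, 1 call with edgeR and 1 with DESeq2, and a median of -0.02. Under total scaling 5 were called lower, at a median of -0.05 relative to all genes. PRPS13, of the small subunit, had 3074 and 3394 at 48 h, against 2606, 2377 and 2091 at 0 h (log2 0.46 ± 0.19, adjusted p = 0.076).

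**Figure D4:**
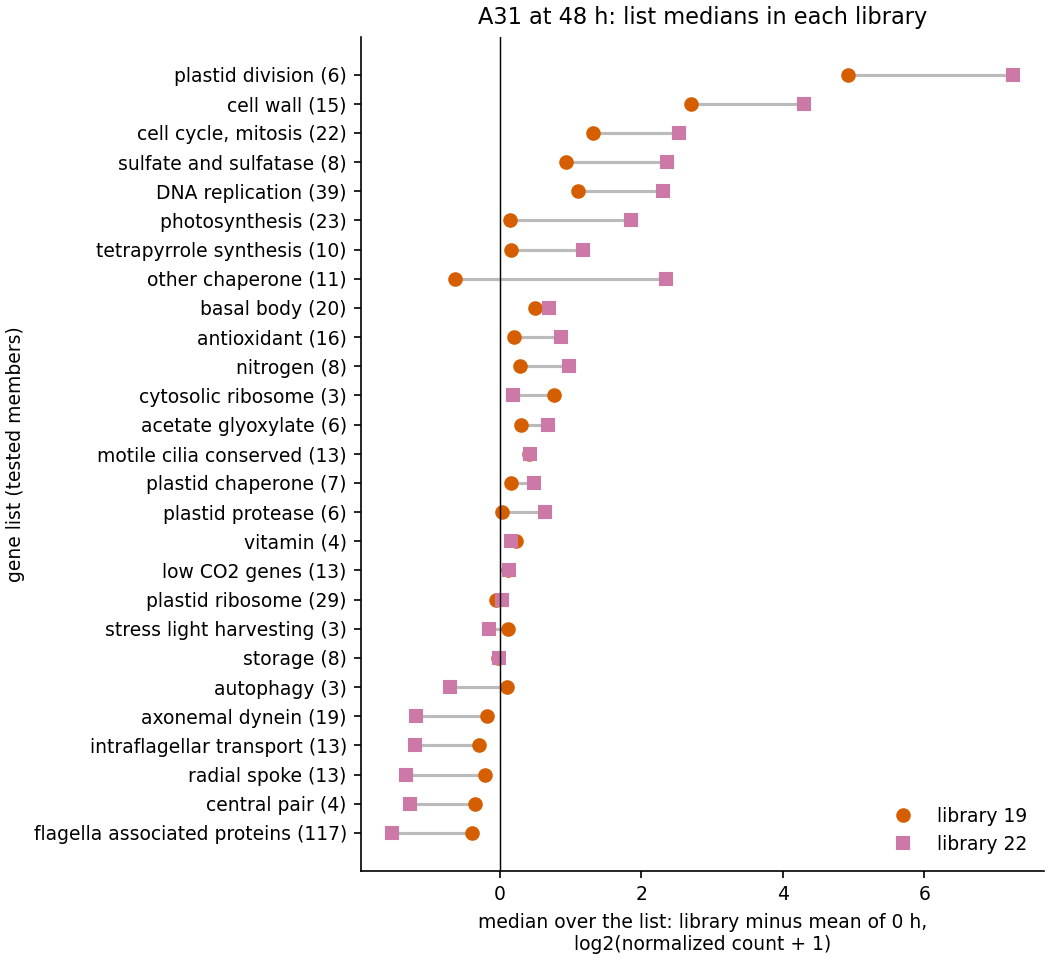
Median over each gene list (tested members in brackets) of the difference between a 48 h library of A31 and the mean of 0 h, log2(normalized count + 1), for library 19 (circles) and library 22 (squares), joined by a line. Plastid division (4.92 and 7.25) and cell wall (2.70 and 4.30) stand highest in both libraries, and the 5 flagellar lists stand below 0 in both.

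Both libraries lay outside the 0 h range on opposite sides for 2035 genes (14.1%), library 19 below and library 22 above for 1118 of them (7.75%) and the reverse for 917 (6.36%). The 5 named genes with the largest distance between the libraries were 4 chaperones and a peroxiredoxin. CPN60C, the mitochondrial chaperonin that folds imported proteins, had 6.27 (library 19) and 1393 (library 22) normalized counts at 48 h, against 24.6, 50.4 and 23.2 at 0 h. Its co-chaperonin CPN10 had 90.9 and 1946 at 48 h, against 132, 237 and 181 at 0 h, and HSP70C, the mitochondrial Hsp70, had 22.7 and 1084 at 48 h, against 29.1, 67.9 and 65.4 at 0 h. These 3 mitochondrial proteins share a low library 19 and a high library 22. HSP70E, a large Hsp70 relative, had 41.5 and 1593 at 48 h, against 152, 254 and 275 at 0 h. PRX6, annotated as a thioredoxin-dependent peroxidase, had 1.57 and 51.9 at 48 h, against 2.24, 3.05 and 3.52 at 0 h. In each, library 19 was the lowest of the 5 libraries and library 22 the highest. At 12 h the A31 libraries had 1078, 1101 and 1023 for CPN60C and 892, 1012 and 772 for HSP70C, nearer to library 22. None of the 5 was called (adjusted p = 0.33 for CPN60C, 0.23 for CPN10, 0.23 for HSP70C, 0.87 for HSP70E and 0.16 for PRX6). Without library 22, CPN60C and HSP70E were called lower (adjusted p = 0.0071 and 0.0017). FDX5, an apoferredoxin chosen after its values were seen, was at 0 in every 0 h library and had 360, 91.9 and 225 at 12 h, and at 48 h it was at 0 in library 19 and 4039 in library 22. Its call (adjusted p = 0.035) rests on library 22 alone.

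**Figure D5:**
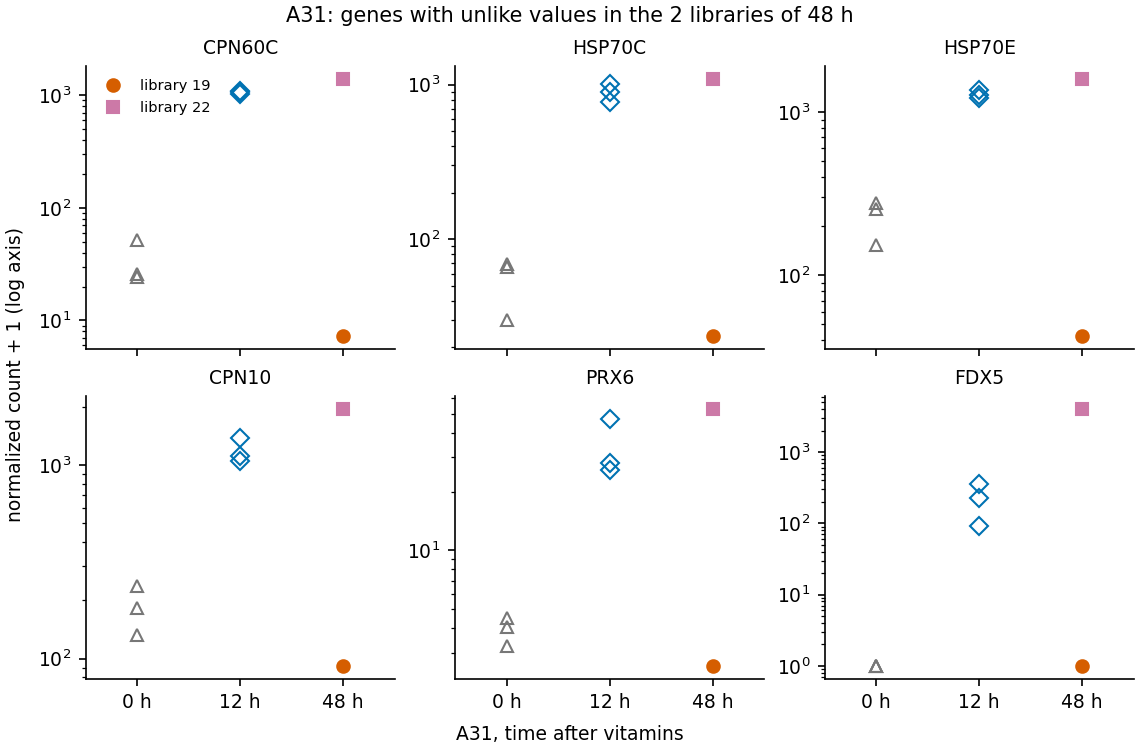
Normalized counts plus 1 (log axes that differ between panels) of 6 genes in A31 at 0, 12 and 48 h after the vitamins, with library 19 as a circle and library 22 as a square at 48 h and 3 libraries at each of the other times. CPN60C stood at 6.27 in library 19 and 1393 in library 22, against 23.2 to 50.4 at 0 h, and FDX5 at 0 and 4039, against 0 in each 0 h library.

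Of 11 chaperones of the cytosol, mitochondria and endoplasmic reticulum, 3 rose (27.3%, near the 27.5% of all named genes) and the others were not called. The list median was -0.63 in library 19 and 2.35 in library 22. Without library 22, 3 fell, and without library 19, 8 rose. DNJ13, a DnaJ-like protein, had 57.2 and 148 at 48 h, against 23.5, 34.3 and 28.1 at 0 h (log2 1.67 ± 0.31, adjusted p = 0.0014), above 0 h in both libraries and not called without library 22 (adjusted p = 0.052). Of 7 chloroplast chaperones, 2 rose (28.6%, near the 27.5% of all named genes), the small heat shock proteins HSP22E and HSP22F. HSP22F had 61.9 (library 19) and 113 (library 22) normalized counts at 48 h, against 40.3, 36.6 and 43.6 at 0 h (log2 1.04 ± 0.36, adjusted p = 0.04). HSP22E had 128 and 198 at 48 h, against 88.4, 90.8 and 105 at 0 h (log2 0.75 ± 0.26, adjusted p = 0.04). The pair can share reads, and under total scaling neither was called (log2 0.82 and 0.52, adjusted p = 0.13 and 0.19), nor was either without library 22. CLPB3, the Hsp100 disaggregase of the chloroplast, had 712 and 813 at 48 h, against 543 to 616 at 0 h (log2 0.38 ± 0.20, adjusted p = 0.16) and was not called. Of 6 Deg, FtsH and related proteases, DEG1C, a DegP-type protease, was the 1 called with limma (16.7%, under the 27.5% of all named genes). DEG1C had 441 (library 19) and 461 (library 22) normalized counts at 48 h, against 244, 137 and 172 at 0 h (log2 change 1.33 ± 0.48, adjusted p = 0.048). Its 2 libraries of 48 h were close to each other and above every 0 h library. DEG1C was not called under total scaling (adjusted p = 0.077), nor was it without library 22 (adjusted p = 0.22) or without library 19 (adjusted p = 0.061).

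Genes of sulfur use moved in both directions, 5 of 8 up and 2 down. Without library 22, 2 rose and 0 fell. SIR1, the ferredoxin-sulfite reductase, had 137 (library 19) and 797 (library 22) normalized counts at 48 h, against 41.4, 45 and 64 at 0 h (log2 change 2.72 ± 0.45, adjusted p = 0.00046). ARS5, an arylsulfatase-like protein, had 65.1 and 222 at 48 h, against 14.5, 24.4 and 20.4 at 0 h (log2 2.58 ± 0.46, adjusted p = 0.00086). SLT3, a sodium/sulfate co-transporter, fell, with 39.2 and 25.5 at 48 h, against 78.3, 113 and 131 at 0 h (log2 -1.70 ± 0.45, adjusted p = 0.012). For all 3 the 48 h and 0 h libraries did not overlap, and SLT3 alone of them was not called without library 22 (adjusted p = 0.14). Of 16 antioxidant and thiol genes, 5 rose, against 1 without library 22, 10 without library 19 and 3 under total scaling. The share of this list that rose with both libraries, 31.2%, was near the 27.5% of all named genes. APX1, the ascorbate peroxidase, had 339 and 1473 at 48 h, against 98.5, 159 and 193 at 0 h (log2 2.28 ± 0.41, adjusted p = 0.00091), and GPX5, a glutathione peroxidase, 2345 and 3905 at 48 h, against 1542, 1453 and 1441 at 0 h (log2 1.03 ± 0.21, adjusted p = 0.0022). Of 8 nitrogen genes 2 rose and 1 fell, against 0 and 0 without library 22. The nitrogen shares with both libraries, 25% risen and 12.5% fallen, were under those of all named genes (27.5% and 20.2%). THB1, a truncated hemoglobin, had 34.5 and 404 at 48 h, against 10.1, 13.7 and 9.84 at 0 h (log2 3.31 ± 0.70, adjusted p = 0.0032), and GLN1, a glutamine synthetase, 1739 and 3871 at 48 h, against 802, 1044 and 1303 at 0 h (log2 1.33 ± 0.30, adjusted p = 0.005). The rises of THB1 and GLN1 were larger in library 22, and neither was called without it (adjusted p = 0.11 and 0.14), nor was GPX5 (adjusted p = 0.053). The amino acid transporter AOT4 fell, with 32.1 and 6.37 at 48 h, against 53.7, 52.6 and 42.2 at 0 h (log2 -1.68 ± 0.51, adjusted p = 0.023), and its call was lost without library 22 (adjusted p = 0.53).

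Among carbonic anhydrases and genes known from low CO2, 2 of 13 rose and 2 fell, against 0 and 0 without library 22. The shares with both libraries, 15.4% risen and 15.4% fallen, were under those of all named genes (27.5% and 20.2%). CAH8, a carbonic anhydrase, had 632 and 473 at 48 h, against 1824, 1153 and 2353 at 0 h (log2 -1.64 ± 0.48, adjusted p = 0.019), and CCP2, a protein of the chloroplast envelope, had 21.9 and 108 at 48 h, against 6.71, 11.4 and 16.2 at 0 h (log2 2.08 ± 0.49, adjusted p = 0.0061). CAH8 was lower in both 48 h libraries than in any of 0 h, and CCP2 was higher in both. In acetate use, IDH3, an isocitrate dehydrogenase, was the 1 called of 6 genes (16.7%, under the 27.5% of all named genes that rose). It had 2470 and 5253 at 48 h, against 1864, 2182 and 1950 at 0 h (log2 0.85 ± 0.25, adjusted p = 0.019). With limma, IDH3 was not called under total scaling (adjusted p = 0.11) or quantile scaling (adjusted p = 0.057). In starch metabolism 1 of 8 rose and 1 fell (12.5% each, under the shares of all named genes). The gene that fell was AMYB2, a beta-amylase, with 187 and 92.9 at 48 h, against 377, 285 and 320 at 0 h (log2 -1.30 ± 0.33, adjusted p = 0.0088). None of CAH8, CCP2, IDH3 and AMYB2 was called without library 22 (adjusted p = 0.16, 0.23, 0.46 and 0.2). The lists of autophagy, cytosolic ribosomal proteins, stress-related antenna proteins and vitamin-responsive genes had 3, 3, 3 and 4 tested members and gave 0 calls with limma, 0, 0, 1 and 0 at an unadjusted p under 0.05, 0, 0, 1 and 1 with edgeR, and 0, 0, 1 and 1 with DESeq2. The autophagy list had a median of 0.10 in library 19 and -0.71 in library 22. APG8, the ubiquitin-like protein of autophagosomes, had 1896 and 912 at 48 h, against 1588, 1379 and 1522 at 0 h (log2 -0.18 ± 0.28, adjusted p = 0.66), with library 19 above and library 22 below the 0 h range. RPS25, of the cytosolic ribosome, had 111535 and 74375 at 48 h, against 75729, 63610 and 58813 at 0 h (log2 0.47 ± 0.33, adjusted p = 0.3).

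Outside the lists, the named falls with the largest gaps included a membrane lipid enzyme, transporters and signalling proteins. TLP2, a tubby-like protein, had 157 (library 19) and 120 (library 22) normalized counts at 48 h, against 742, 709 and 728 at 0 h (log2 change -2.39 ± 0.27, adjusted p = 9.3e-06), the fall with the largest gap among named genes. DES6, the chloroplast omega-6 fatty acid desaturase, had 27929 (library 19) and 12495 (library 22) normalized counts at 48 h, against 78193, 62301 and 71301 at 0 h (log2 change -1.91 ± 0.27, adjusted p = 0.00013). Both genes were lower in both 48 h libraries than in any 0 h library, and both calls held without library 22 (adjusted p = 0.00017 and 0.0029). PTB2, a sodium/phosphate symporter, had 12.5 and 5.46 at 48 h, against 33.6, 64.1 and 40.8 at 0 h (log2 -2.28 ± 0.37, adjusted p = 0.00037). RDP3, a phosphatase with a rhodanese domain, had 22.7 and 2.73 at 48 h, against 64.9, 59.5 and 56.9 at 0 h (log2 -2.71 ± 0.53, adjusted p = 0.0018). DRP4A, a dynamin-related GTPase, had 64.3 and 16.4 at 48 h, against 168, 135 and 181 at 0 h (log2 -2.26 ± 0.40, adjusted p = 0.00083). In these 3 genes library 22 was lower than library 19 and both lay below 0 h. CYG36, a guanylate cyclase, had 137 and 50.1 at 48 h, against 350, 294 and 287 at 0 h (log2 -1.88 ± 0.47, adjusted p = 0.0088), and RLS4, listed as a hypothetical protein, had 27.4 and 15.5 at 48 h, against 62.7, 67.1 and 64.7 at 0 h (log2 -1.60 ± 0.37, adjusted p = 0.0049). Neither CYG36 nor RLS4 was called without library 22 (adjusted p = 0.2 and 0.11).

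Of genes without a name, the largest rises were of Cre17.g717900, with 1805 (library 19) and 1557 (library 22) normalized counts at 48 h, against 0, 3.05 and 3.52 at 0 h, and Cre04.g226600, with 337 and 819 at 48 h and 0 in each 0 h library, at least 100-fold above the floor in library 19. The largest falls were of Cre07.g334150, with 3.14 and 0 at 48 h, against 68.3, 77.8 and 84.4 at 0 h, and Cre17.g730550, with 0.784 and 0 at 48 h, against 19, 28.2 and 78 at 0 h. Both were at or close to the floor in each 48 h library.

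Set against A31 at 12 h, 48 h had 1766 genes higher (12.2%) and 2118 lower (14.7%), and under total scaling 558 and 5961. Without library 22 the calls numbered 6199 and without library 19 2615. Among named genes, 17.4% were higher at 48 h than at 12 h and 22.2% lower. Replication genes were lower at 48 h than at 12 h, 28 of 39 called, with a median of -1.60 against -0.09 over all genes. So were 18 of 22 mitosis genes and 5 of 6 plastid division genes. Plastid ribosomal protein genes were higher at 48 h than at 12 h, 20 of 29, with a median of 0.71. Under total scaling the median of all genes was -0.64 in this comparison, and relative to it that list had 0.79 and the replication list -1.50. In that scaling 8 of the plastid ribosomal genes were called higher and 1 lower. GAS28 had 8135, 6103 and 6880 at 12 h, above both 48 h libraries, and ALK3 had 3099, 2504 and 2801, also above both. The 12 h and 48 h values are each set against the same 0 h libraries, so the changes at the 2 times are not independent.

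Both libraries of 48 h lay above the A31 libraries of both 0 h and 12 h for 644 genes (4.47%) and below them for 608 (4.22%). Of these, 137 were called higher against both times (0.95%) and 180 lower (1.25%). VPS46, a subunit of the ESCRT-III complex that remodels membranes, had 2541, 1784 and 2161 at 0 h, 1422, 1265 and 1730 at 12 h, and 3678 and 3479 at 48 h (48 h minus 12 h, log2 1.29 ± 0.20, adjusted p = 0.00046). RBOL2, a respiratory burst oxidase-like gene, had 779, 735 and 515 at 0 h, 487, 625 and 808 at 12 h, and 1091 and 1578 at 48 h (log2 1.07, adjusted p = 0.0084). COQ4, of ubiquinone synthesis, had 72.7, 67.9 and 54.8 at 0 h, 68.7, 66.2 and 56.9 at 12 h, and 116 and 137 at 48 h (log2 0.97, adjusted p = 0.011). In these 3 genes both libraries of 48 h were above every library of 0 h and 12 h. DEG1C had 153, 129 and 151 at 12 h, and SSA10, annotated as a dopamine beta-monooxygenase-like protein, had 539, 384 and 522 at 0 h, 364, 251 and 370 at 12 h, and 707 and 817 at 48 h. Against 0 h, RBOL2, COQ4 and SSA10 were not called without library 22 (adjusted p = 0.19, 0.14 and 0.26), and VPS46, COQ4 and SSA10 were not under total scaling (adjusted p = 0.072, 0.086 and 0.22).

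On the low side, TLP2 had 272, 326 and 336 at 12 h, above both of its 48 h values (log2 -1.17 ± 0.27, adjusted p = 0.0052). IDA7, an intermediate chain of the inner dynein arm I1, had 352, 304 and 373 at 0 h, 288, 416 and 317 at 12 h, and 184 and 155 at 48 h (log2 -0.99, adjusted p = 0.0072). DYF13, known to act in intraflagellar transport, had 525, 507 and 546 at 0 h, 512, 777 and 609 at 12 h, and 336 and 230 at 48 h (log2 -1.16, adjusted p = 0.0041). Both of these flagellar genes were lowest at 48 h, in each library. Of the 166 flagellar genes, 30 were called lower than at 12 h and 2 higher, where 22.2% of all named genes were lower and 17.4% higher. The flagellar median against 12 h was -0.39, against -0.09 over all genes. MST1, a protein of the hairs on the flagellum called mastigonemes, had 3578, 3718 and 3876 at 0 h, 3895, 6876 and 5313 at 12 h, and 2446 and 1926 at 48 h (log2 -1.27, adjusted p = 0.0022). RYR1, annotated as a calcium channel, had 916, 870 and 1261 at 0 h, 958, 1181 and 903 at 12 h, and 640 and 378 at 48 h (log2 -1.03, adjusted p = 0.006). In each of these genes both 48 h libraries were the lowest of the 8 A31 libraries. Without library 22 the calls of IDA7, DYF13, MST1 and RYR1 against 0 h were lost (adjusted p = 0.069, 0.21, 0.26 and 0.14). Scaled to the library totals, 116 genes lay above both ranges and 2312 below. Of the 10 genes named for this pattern, VPS46, COQ4, RBOL2, SSA10 and DEG1C had log2 values of 1.38, 1.06, 1.15, 1.32 and 1.73 against 12 h relative to all genes under that scaling. Taken without that median, COQ4, RBOL2 and DEG1C were not called against 12 h (log2 0.42, 0.51 and 1.09, adjusted p = 0.27, 0.097 and 0.058), and RBOL2 no longer lay beyond both ranges.

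The A31 change from 0 to 48 h was also set against the DHC16 change over the same time. It was the higher for 1249 genes (8.66%) and the lower for 1335 (9.26%) (limma, a test of the difference itself), and under total scaling for 429 and 9151. The calls numbered 4188 without library 22 and 3790 without library 19. Among named genes, the A31 change was the higher for 15.1% and the lower for 11.2%. Photosynthesis genes had 15 of 23 members with a higher change in A31, at a median difference of 2.46. Plastid ribosomal protein genes had 23 of 29 higher in A31, at a median of 1.01, and cell wall genes 8 of 15, at 1.95. The change in A31 was the lower for 5 of 7 chloroplast chaperones and 4 of 8 sulfur genes. Of the 166 flagellar genes, 6 had a higher and 6 a lower change in A31, and under total scaling these counts were 2 and 128. Total scaling put the median difference of all genes at -1.28 (the DHC16 libraries of 0 h had the highest deposited totals of the table), and relative to it the medians were 2.48 for photosynthesis, 1.03 for plastid ribosomal proteins, -1.65 for chloroplast chaperones and -0.13 for flagellar genes. Before that median is taken off, total scaling gave 10 higher and 2 lower photosynthesis genes and 6 higher and 3 lower wall genes. For plastid ribosomal proteins it gave 0 higher and 4 lower, the opposite direction.

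DEG1C had 441 and 461 in A31 at 48 h, against 244, 137 and 172 in A31 at 0 h. It had 9317, 12638 and 10319 in DHC16 at 48 h, against 1211, 237 and 388 in DHC16 at 0 h, a difference of changes of -3.14 ± 0.64 (adjusted p = 0.0024). RDP3, which fell in A31, had 1094, 1259 and 1154 in DHC16 at 48 h, against 227, 156 and 146 at 0 h, and the difference was -5.45 ± 0.71 (adjusted p = 5.8e-05). GAS28 had 254, 297 and 262 in DHC16 at 48 h, against 12.3, 21.2 and 13.1 at 0 h, and its A31 change was the larger by 4.74 ± 0.45 (adjusted p = 3e-06). All 3 genes were higher in every DHC16 library of 48 h than in any of 0 h.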

How the data were processed

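RNA was sequenced in A31 and DHC16 cultures given vitamin B12 and thiamine. The values are normalized counts per gene, a signal that the authors deposited in 1 table. In each of the 17 libraries 100% of values were multiples of a fixed step (tolerance 0.01), and the multiples were taken as reads. The submitters' processing notes name TopHat 1.3.1, HTSeq 0.5.3p9, CASAVA 1.8.2 and edgeR 3.0.8 with no roles or settings. Build, annotation, strand setting and normalization: not given in the sources used here. Paralogs and overlapping genes may therefore share reads.

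Gene names and descriptions came from the authors' deposited tables of rapamycin log2 fold changes, whose values were not used, so a named gene had passed the authors' thresholds there. No coordinates or sequences are given. Library 25 of A31 at 48 h was not analysed here. Because the unit is a normalized count, limma 3.58.1 (trend) was fitted on log2(value + 1), with a mean for each combination of strain and time, 1 spread estimated over all 17 libraries, and Benjamini-Hochberg adjustment at 0.05. Genes needed a mean of at least 1 CPM over the 17 libraries. The comparisons were A31 at 48 h against 0 h and against 12 h, and the A31 change minus the DHC16 change.

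Alternatives were edgeR 4.0.16 and DESeq2 1.42.0 on the recovered reads, other scalings, a pseudocount of 5, no filter, fewer groups, a replicate block and each library left out. The limma, edgeR and DESeq2 steps were tested on simulated data. A floor of 3 reads and 95% exact intervals cover counting error only.

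Genes were named by a rule: the marker METE, the 12 named genes with the largest gap in each direction, 2 unnamed genes in each direction, up to 4 genes per list by gap, the 5 named genes with libraries farthest apart on opposite sides, and the 5 in each direction farthest beyond both the 0 h and 12 h ranges. FDX5 and the other flagella associated proteins that rose were chosen after their values were seen. Not every gene the rule selects is described, and for 1 the values are not reported here. The comparison, its gene lists and tests were chosen with earlier results of these data known, and the lists were corrected after the tables were read.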

Additional observations from a re-analysis of the deposited data

Results flagged for a closer look

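The change from 0 to 48 h in A31 differed from that in DHC16 for 19 of the 33 genes named for their gap or for lying beyond both earlier times. The limma test of the difference (Benjamini-Hochberg adjusted p under 0.05) called 17.9% of all tested genes. Of all named genes, to which the 33 belong, it called 15.1% higher and 11.2% lower in A31. The 33 genes were chosen by their A31 values, which are part of the difference, so the count is a description. Under total scaling 17 of the 19 were called in the same direction, and under quantile scaling 18. Values are the A31 change minus the DHC16 change in log2.

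Among wall genes, 5 rose more in A31, with differences of 4.84 for PHC19, 4.74 for GAS28, 4.36 for PHC22, 3.44 for PHC4 and 3.15 for ISG-C2, while PHC25 had a smaller change in A31 (5.37, against 7.13 in DHC16), a difference of -1.76 that was not called (adjusted p = 0.25) and was -2.62 under total scaling (adjusted p = 0.013). FAP212 (4.69), GOX18 (3.46) and the division genes ALK3 (4.13), CDKB1 (3.77) and MINE2 (3.06) also had the higher change in A31. RBOL2 differed by 1.3, and by 0.04 under total scaling, where it was not called (adjusted p = 0.92). DES6 had a difference of 1.58, with a log2 change of -1.91 in A31 and -3.49 in DHC16. Its call was lost under total scaling (0.31, adjusted p = 0.37), and under quantile scaling the sign turned (-0.38, adjusted p = 0.5).

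The change was the lower in A31 for RDP3 (-5.45), SLT3 (-3.34), DEG1C (-3.14), PTB2 (-1.82), FAP289 (-1.67), FAP63 (-1.64) and TLP2 (-1.19). Under scaling to the library totals the difference relative to the median of all genes was -5.41 for RDP3, -3.12 for DEG1C, -1.17 for TLP2 and 4.82 for GAS28.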

How the results depend on the processing

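For A31 at 48 h against 0 h (3892 calls), the count was 1716 with the A31 groups alone and 297 with the 48 h and 0 h libraries alone. Those fits leave fewer libraries to estimate the spread, and the unlike 48 h pair weighs more in it. The rank correlation was 0.854 between the 48 h libraries, against 0.979 to 0.984 among those of 0 h. Adjusted p-values of the main fit may thus rest on too small a spread for 48 h. Leaving out 1 library gave 953 (without library 22) to 7205 (without library 19), with 2568 without 0 h library 1 and 2589 without library 7. Scaling libraries to their totals gave 3898 calls of which 29% were higher, against 53.2% as deposited and 64.2% with edgeR, and moved the median change of all genes to -0.19, against 0.03. Genes called and with both libraries outside the 0 h range numbered 3672, 1716 with the A31 groups alone and 297 with 48 h and 0 h alone. Genes with both libraries outside the 0 h range numbered 6601 as deposited and 6796 under total scaling, with 50.9% and 26.6% of them above. Against 12 h (3884 calls), the A31 groups alone gave 2096 and total scaling gave 6519, 8.56% of them higher, against 45.5%. Leaving out 1 library gave 2615 to 6199, the highest without library 22. For the strain difference (2584 calls), total scaling gave 9580, 4.48% of them higher, against 48.3%, and leaving out 1 library gave 1962 to 4188, the highest without library 22. Genes beyond both the 0 h and the 12 h range numbered 1252, against 2428 under total scaling. The causes of these shifts between scalings were not tested. With a replicate block the calls were 3869 against 0 h and 3874 against 12 h, and for the strain difference 2865 (random) and 2123 (fixed). Deviations from the group means of same-numbered libraries of the 2 strains correlated at 0.22, 0.21 and 0.15 at 0 h, each highest with its own number. At 12 h they correlated at 0.18, 0.01 and -0.03, only number 10 highest with its own. At 48 h the values were -0.08 and 0.06, where the deviations of the 2 A31 libraries mirror each other and cannot test a pairing. The numbers were not taken to pair libraries in the main fit, and a pairing is not excluded. Of the 133 genes that the naming rule selects, not all of them described, 45 lost their call without library 22 and 1 without library 19, 11 did with total scaling, 10 with quantile scaling, 3 with edgeR and 1 with DESeq2. The largest loss was with the 48 h and 0 h libraries alone, 61 of the 133, and the A31 groups alone lost 29. Leaving out 1 library of 0 h lost 10 to 19. CPN60C and HSP70E changed direction, with log2 -2.12 and -2.38 without library 22 and ranges of -2.12 to 5.46 and -2.38 to 2.85 over the libraries left out. With edgeR, 7 of 19 axonemal dynein genes and 4 of 13 radial spoke genes were called, against 11 and 7 with limma, while 15 of 23 photosynthesis genes, 7 of 10 tetrapyrrole genes and 5 of 11 chaperones of other compartments were, against 10, 4 and 3. Depth limits the genes whose 0 h mean lay at or under the floor of 3 reads, and their ratios carry wide counting intervals.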
